A study of Homo sapiens with 4 samples.

Results

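The genes described here are the SR and hnRNP splicing factors of LNCaP cells, a human prostate cancer line. They were chosen by name: protein-coding genes called SRSF plus a number, all genes starting with HNRNP, and TRA2A and TRA2B, with pseudogenes left out and with an RPKM that reached 1 in some library. RPKM is a read count scaled to transcript length and to how many reads a library had mapped, so levels may be compared between genes. The rule named 37 genes and kept 34, of which 13 were SR genes and 21 HNRNP genes, out of 14626 genes that passed the same RPKM filter and 19801 genes in all. Just outside the RPKM limit were SRSF12, with a highest RPKM of 0.42, HNRNPCL4 with 0.22 and HNRNPCL2 with 0.17, and just inside it was HNRNPA1L2 with 3.19.

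SR proteins bind exonic enhancers in pre-mRNA through RNA recognition motifs and recruit the splicing machinery through arginine- and serine-rich tails, which CLK and SRPK kinases phosphorylate. The hnRNP proteins coat nascent transcripts, and many of them act as splicing silencers that oppose SR proteins at the same exons. Genes of both families are known for poison exons, whose inclusion sends the transcript to nonsense-mediated decay and lets a splicing factor limit its own level.

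The study asked how ailanthone (AIL), a plant quassinoid, acts on prostate cancer cells, also in the presence of the construct AR1-651. LNCaP cells were transfected for 24 h with an empty vector or with the AR1-651 plasmid, and were then kept for 12 h with or without AIL. RNA-seq was deposited for 4 conditions, the empty vector and AR1-651, each without and with AIL, and each condition had 1 library. There is thus no spread between replicates to set the differences against and no p-value. RPKM is relative to the reads of its library, so a change of a gene cannot be told apart from a change in the other genes. In bulk RNA a change in the mix of cells also cannot be told apart from a change within cells.

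The 8 luminal prostate markers analysed were all present in every library, between RPKM 11.6 and 1442. Of another 8 markers, of stroma, blood, endothelium and basal epithelium, 7 were below 1 everywhere and COL1A1 lay between 1.75 and 4.59, with a sum over the 8 of 3.24 to 6.68. In short genes most of the deposited RPKM values step in units of 1 read, and the steps place the depth at about 5195000, 4935000, 5600000 and 5800000 reads in empty vector without and with AIL and then AR1-651 without and with AIL. At that depth, and at the length of its shortest matched transcript, a member had from 9 reads (HNRNPA1L2) upwards in its lowest library. The median was 436 over 33 members. The 95% counting interval of a log2 difference had a median half-width of 0.17, and these intervals cover counting error only.

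Promoters are shown for the members on which the AIL comparisons turn most, SRSF7, TRA2B and HNRNPDL, which were higher with AIL, and SRSF5, which was lower. Each runs from 250 bases before to 50 bases after the annotated start, 5′ to 3′ on the gene's strand, in RefSeq GRCh38.p14. Capitals mark CACGTG (the E-box letters) in HNRNPDL and CCGGAAGT (ETS letters) in SRSF5. SRSF7 (chr2:38751445-38751744, minus strand) and TRA2B (chr3:185937965-185938264, minus strand) held none of the 8 motifs searched. HNRNPDL lies at chr4:82430176-82430475 on the minus strand and SRSF5 at chr14:69766892-69767191 on the plus strand.
SRSF7: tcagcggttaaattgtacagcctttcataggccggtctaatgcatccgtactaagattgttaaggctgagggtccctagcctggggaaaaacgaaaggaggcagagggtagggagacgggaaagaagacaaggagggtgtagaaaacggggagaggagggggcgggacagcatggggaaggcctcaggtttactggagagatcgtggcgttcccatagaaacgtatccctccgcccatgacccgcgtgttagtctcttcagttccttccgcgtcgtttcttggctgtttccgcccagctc
TRA2B: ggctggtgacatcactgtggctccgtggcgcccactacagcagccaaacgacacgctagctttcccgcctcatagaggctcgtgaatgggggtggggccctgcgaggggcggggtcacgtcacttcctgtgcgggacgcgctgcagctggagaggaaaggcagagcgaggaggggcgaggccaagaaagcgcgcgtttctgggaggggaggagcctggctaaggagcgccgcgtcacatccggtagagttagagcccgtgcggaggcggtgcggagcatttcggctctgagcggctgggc
HNRNPDL: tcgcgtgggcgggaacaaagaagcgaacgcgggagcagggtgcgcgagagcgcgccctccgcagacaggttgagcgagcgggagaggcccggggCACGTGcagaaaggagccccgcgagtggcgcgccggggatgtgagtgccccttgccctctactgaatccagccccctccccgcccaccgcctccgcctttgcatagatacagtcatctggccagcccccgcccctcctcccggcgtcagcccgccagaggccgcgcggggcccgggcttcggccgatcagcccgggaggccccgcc
SRSF5: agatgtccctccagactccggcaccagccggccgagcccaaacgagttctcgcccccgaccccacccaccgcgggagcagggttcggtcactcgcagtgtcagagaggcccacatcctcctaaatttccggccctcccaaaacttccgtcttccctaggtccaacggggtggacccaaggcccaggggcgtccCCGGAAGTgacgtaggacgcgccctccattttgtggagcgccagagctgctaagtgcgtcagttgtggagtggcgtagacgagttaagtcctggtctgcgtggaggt

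A promoter was found for 31 of the 34 members, and 11173 of all genes tested had one and served as the comparison. Both strands were searched. CACGTG was present in 7 of 31 member promoters (22.6%) and in 9.99% of all promoters, and its carriers were HNRNPA3, HNRNPD, HNRNPDL, HNRNPH2, HNRNPH3, HNRNPM and HNRNPUL1, with no SR gene among them. CCAAT, the NFY letters, was present in 15 of 31 (48.4%) and in 37.4% of all. CCGGAAGT occurred in HNRNPD, SRSF4 and SRSF5, 9.68% against 8.82%. GCATGCGC (part of the NRF1 motif) occurred in SRSF10 alone, 3.23% against 5.70%, and ATGGCGGC (part of the YY1 motif) in HNRNPM alone, 3.23% against 6.27%. TGACGTCA (CRE) was in no member promoter and in 3.26% of all. The palindromic androgen response element, AGAACA and TGTTCT with 3 bases between them, was in 0 promoters of either set, and its half-site AGAACA was in HNRNPD, HNRNPUL1, SRSF10 and SRSF8, 12.9% against 9.14%, a search that also counts any full element. The GC content of the windows had a median of 64% in members and 65% in all genes. These matches are descriptions of letters in a window and were not tested.

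Levels of the 34 genes spanned more than 2 orders of magnitude. HNRNPA1, which represses exons and shuttles mRNA out of the nucleus, was the highest in every library, and HNRNPA1L2, a copy of HNRNPA1 without introns, was the lowest. Together the SR genes held 0.164%, 0.167%, 0.113% and 0.157% of the summed RPKM of empty vector, of empty vector + AIL, of AR1-651 and of AR1-651 + AIL. The HNRNP genes held 0.455%, 0.424%, 0.333% and 0.438%. Both shares were lowest in the library labelled AR1-651, in which 33.0% of the summed RPKM came from ribosomal protein genes, against 22.3% to 25.5% in the other libraries. That library was also the lowest of the 4 for 18 of the 34 members, where it was the lowest for 36.2% of all genes tested. With ribosomal protein genes left out of the sum, the SR share was 0.213%, 0.215%, 0.169% and 0.210%, and the HNRNP share was 0.592%, 0.545%, 0.497% and 0.587%, so the library labelled AR1-651 remained lowest.

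**Figure D1:**
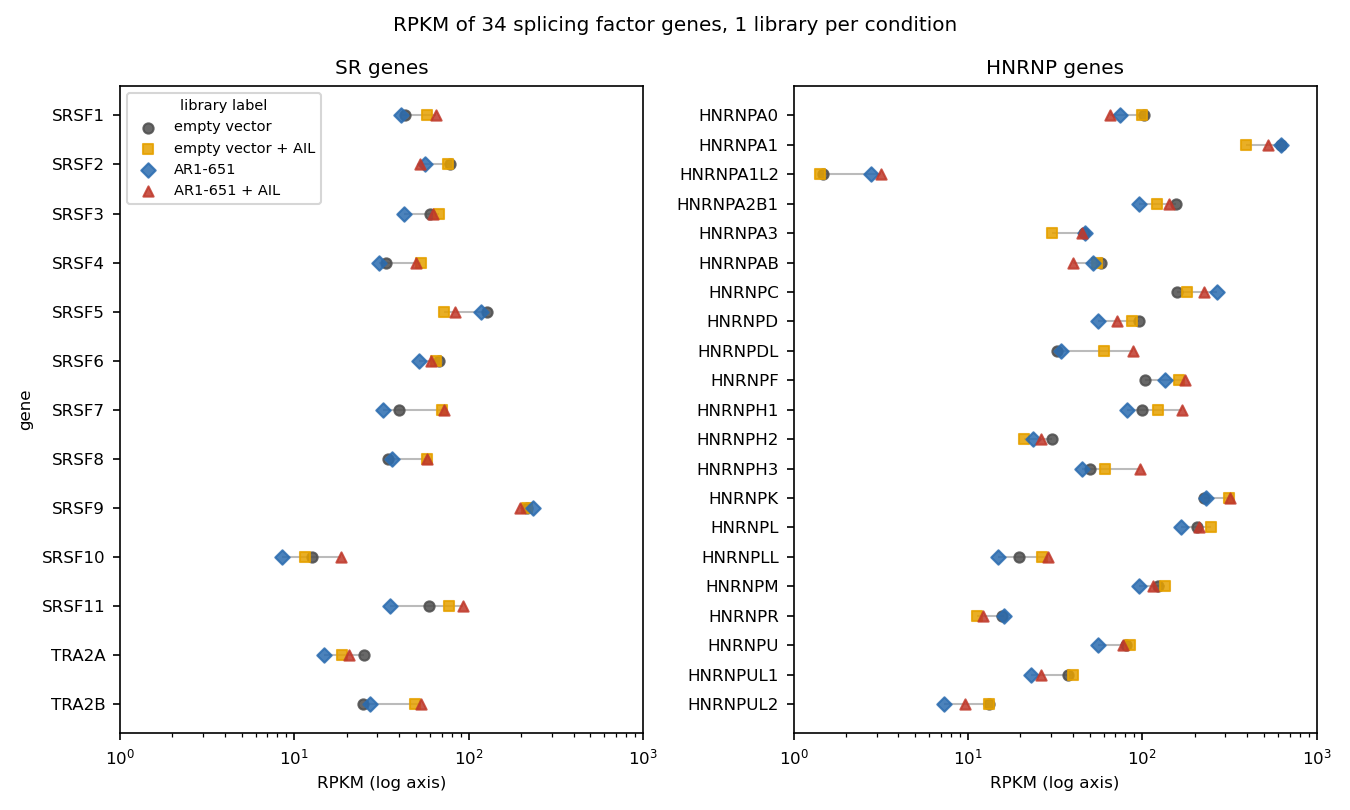
RPKM (log axis) of the 13 SR genes (left) and 21 HNRNP genes (right), with 1 point for each library and a grey line from the lowest to the highest. HNRNPA1 lies far to the right at 394 to 629 and HNRNPA1L2 far to the left at 1.42 to 3.19, while SRSF7, SRSF8, TRA2B and HNRNPDL show both points with AIL to the right of both without.

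The values of the members follow by family, each set of 4 in the order empty vector without and with AIL, then AR1-651 without and with AIL. SRSF1 and SRSF9 are close relatives that carry an atypical RNA recognition motif beside the usual one. SRSF9 was the highest SR gene, at RPKM 217, 217, 236 and 198, and hardly moved. SRSF1, the founding SR protein and a known oncogene, was at 43, 57.6, 41.0 and 65.1, with both AIL libraries above both others. SRSF2, which binds enhancers of mixed sequence, was at 78.6, 76.1, 56.5 and 52.5 and differed more between the vector labels than with AIL. Its near copy SRSF8 was at 34.6, 57.8, 36.4 and 57.7, higher with AIL under both labels and alike between them. SRSF3 and SRSF7 link splicing to mRNA export. SRSF3 was at 59.9, 67.5, 42.5 and 62.4, with both AIL libraries slightly above both others. SRSF7 was at 39.8, 70.5, 32.2 and 72.5, so that its AIL libraries stood apart from the others.

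SRSF4, SRSF5 and SRSF6 form a subfamily of closely related SR proteins, and they did not move alike. SRSF4 was at 33.6, 53.3, 30.6 and 49.9, higher in both AIL libraries. SRSF5, known as a gene induced early by insulin, was at 128, 72.5, 117 and 84.0, lower in both AIL libraries. SRSF6 was at 68.1, 65.1, 51.9 and 60.7, with overlapping values. The summed RPKM of the 3 genes, 229.7, 191, 199.9 and 195, therefore moved less with AIL than SRSF4 or SRSF5 did, in both pairs. SRSF10, a general splicing repressor when it is dephosphorylated, was at 12.7, 11.6, 8.51 and 18.6, and SRSF11 was at 59.4, 77.4, 35.4 and 92.6, both lowest in the library labelled AR1-651 and highest in the library labelled AR1-651 + AIL. TRA2A and TRA2B encode the human transformer-2 proteins, which bind GA-rich enhancers. TRA2A was at 25.3, 18.8, 14.9 and 20.6. TRA2B was at 24.95, 49.3, 27.2 and 53.5. The ratio of TRA2B to TRA2A was 0.99 in empty vector, 2.63 in empty vector + AIL, 1.83 in AR1-651 and 2.60 in AR1-651 + AIL.

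Among the hnRNP A/B genes, HNRNPA1 was at 629, 394, 623 and 529 and made up 27.5%, 17.4%, 28.96% and 21.3% of the RPKM of all HNRNP genes. HNRNPA1P10, a transcribed pseudogene of HNRNPA1 that may share reads with it, was at 19.5, 13.9, 20.5 and 16.0. HNRNPA2B1, a close relative of HNRNPA1, was at 156, 122, 95.2 and 143. HNRNPA3 was at 46.4, 30.3, 47.1 and 45.1, with empty vector + AIL alone standing lower. HNRNPA0, which binds AU-rich elements, was at 102, 99.96, 74.1 and 65.7. HNRNPA1L2 was at 1.47, 1.42, 2.80 and 3.19, values that rest on few reads. HNRNPD (AUF1), a factor of AU-rich mRNA decay, was at 96.1, 87.0, 56.1 and 71.4, and HNRNPAB was at 57.8, 54.8, 52.0 and 40.02. Their relative HNRNPDL moved more, at 32.4, 60.7, 34.1 and 88.1. The ratio of HNRNPDL to HNRNPD was 0.34, 0.70, 0.61 and 1.23. HNRNPC, which covers uridine tracts and packages pre-mRNA, was at 157, 180.4, 269.9 and 227, highest in the library labelled AR1-651.

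HNRNPF, HNRNPH1, HNRNPH2 and HNRNPH3 share binding to runs of G. HNRNPF was at 104, 162, 136 and 176. HNRNPH1 was at 99.4, 124, 81.2 and 168, and HNRNPH3 at 50.2, 61.1, 45 and 97.5, both highest in AR1-651 + AIL. HNRNPH2 was at 30.6, 20.9, 23.7 and 26.2, with no such order, and overlaps the readthrough gene RPL36A-HNRNPH2, at 37.4, 34.5, 28 and 40.2. HNRNPK, which binds C-rich sequence, was at 227, 314, 233 and 318, close to each other between the vector labels. HNRNPL, which binds CA repeats, was at 207, 246, 166 and 213. HNRNPLL, known for CD45 splicing in lymphocytes, was at 19.6, 26.6, 14.98 and 28.95. HNRNPM was at 124, 136, 95.5 and 115, and HNRNPR at 15.7, 11.2, 16.0 and 12.3. The scaffold attachment factor HNRNPU was at 80.7, 84.6, 55.4 and 77.5. Its relatives were HNRNPUL1, at 37.4, 39.8, 23.1 and 26.1, and HNRNPUL2, at 13.1, 13.3, 7.26 and 9.67.

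Changes are differences of log2(RPKM + 1), which understate changes at low RPKM, and a member was said to rise or fall where it changed at least 1.5-fold on that scale. The first comparison addresses what AIL did in cells with the empty vector. With AIL, 6 members rose (HNRNPDL, HNRNPF, SRSF4, SRSF7, SRSF8 and TRA2B) against a background of 20.9% of all genes tested, and 3 fell (HNRNPA1, HNRNPA3 and SRSF5) against 22.1%. TRA2B rose by 0.96, HNRNPDL by 0.88, SRSF7 by 0.81, SRSF8 by 0.72, SRSF4 by 0.65 and HNRNPF by 0.64. SRSF5 fell by 0.81, HNRNPA1 by 0.67 and HNRNPA3 by 0.60. The 95% counting interval of the log2 RPKM ratio was 0.66 to 1.31 for TRA2B, 0.72 to 1.09 for HNRNPDL, 0.67 to 0.99 for SRSF7, -0.98 to -0.67 for SRSF5 and -0.73 to -0.61 for HNRNPA1. No member changed 2-fold, where 9.53% of all genes were higher by that much and 9.03% lower. The median change was 0.08 over the 34 members, 0.17 over SR genes and 0.07 over HNRNP genes, beside -0.02 over all genes. Of these 9 members, 7 stayed past 1.5-fold under each of the alternatives run for them (HNRNPDL, SRSF7, SRSF8, TRA2B, HNRNPA1, HNRNPA3 and SRSF5), with HNRNPA3 lacking the alternative on transcript length. SRSF4 and HNRNPF fell short, at lowest 0.55 and 0.53. They did so under scaling to the same summed RPKM, with or without ribosomal protein genes, and without the length and GC trend. A change of the RPKM filter cannot move the value of a kept member, so it is no check of these calls.

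**Figure D2:**
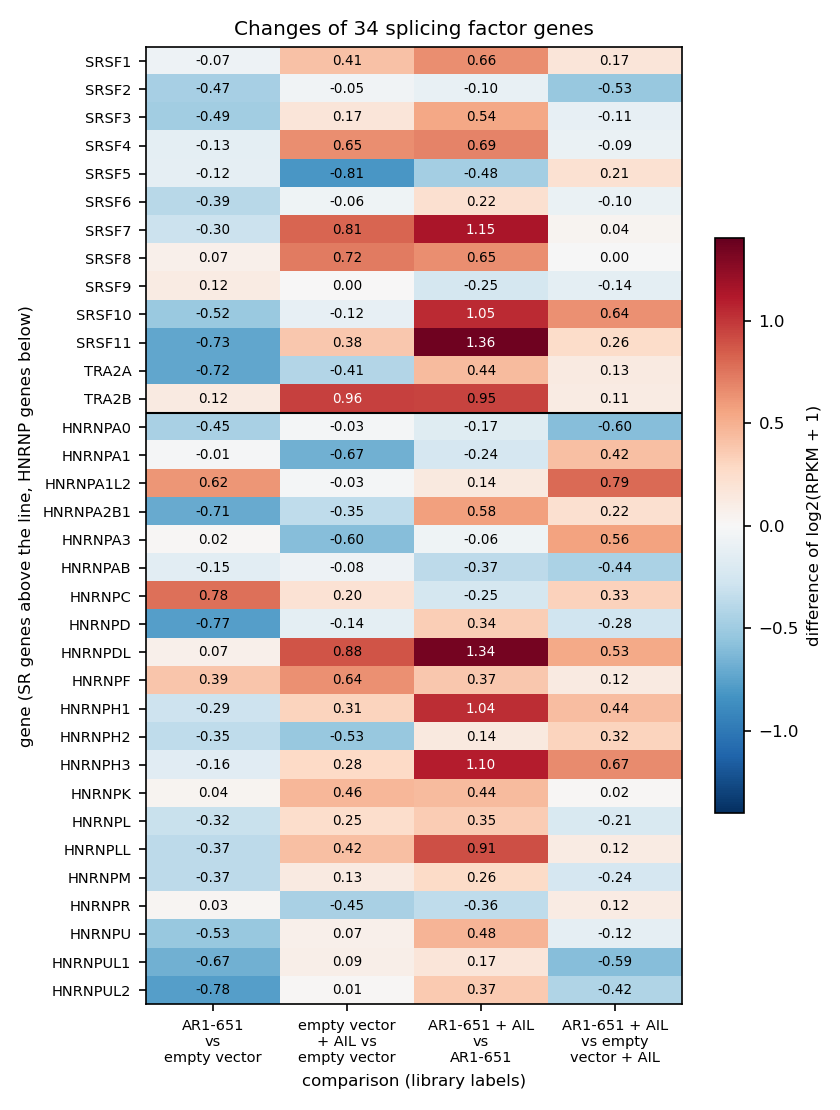
Difference of log2(RPKM + 1) of each member in the 4 comparisons, by colour from blue (lower) to red (higher) with the value printed, SR genes above the line and HNRNP genes below. The third column, AR1-651 + AIL against AR1-651, holds the deepest red (1.36 for SRSF11, 1.34 for HNRNPDL), and the first, AR1-651 against empty vector, is mostly blue.

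AIL was also compared between the libraries labelled AR1-651 + AIL and AR1-651. There 11 members rose and 0 fell by 1.5-fold, against backgrounds of 28.6% and 14.7%. Of the 11, 6 rose at least 2-fold, against 14.9% of all genes: SRSF11 by 1.36, HNRNPDL by 1.34, SRSF7 by 1.15, HNRNPH3 by 1.10, SRSF10 by 1.05 and HNRNPH1 by 1.04. The other 5 were TRA2B at 0.95, HNRNPLL at 0.91, SRSF4 at 0.69, SRSF1 at 0.66 and SRSF8 at 0.65. No member was 2-fold lower, against 5.74%, and the lowest value was -0.48 for SRSF5. The median change was 0.37 over all members, 0.65 over SR genes and 0.34 over HNRNP genes, beside 0.13 over all genes. The counting interval was 1.23 to 1.54 for SRSF11, and for SRSF10, which had few estimated reads, it was 0.57 to 1.69. Under median-ratio scaling 8 members were higher and 2 lower by 1.5-fold, beside 22.4% and 21.6% of all genes and a median of all genes of -0.03. With libraries set to the same summed RPKM the counts were 16 and 0, beside 34.4% and 9.87% and a median of all genes of 0.27.

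In that comparison the change of a gene moved with the GC content of its transcript, with a Spearman rho of -0.41 over 14005 genes and -0.32 over the 33 members that had a transcript. The members were poor in GC, with a median of 43.02% beside 49.3% in all genes. With the trend in transcript length and GC removed, 4 of 33 members were 1.5-fold higher and 5 were 1.5-fold lower, where 19.0% of all genes were higher and 19.0% lower, and the median of the members turned from 0.37 to -0.03. SRSF11 (0.90), HNRNPDL (1.02), SRSF4 (0.63) and HNRNPH1 (0.59) stayed past 1.5-fold, whereas SRSF7 came to 0.53, TRA2B to 0.47, HNRNPH3 to 0.41, SRSF8 to 0.28, SRSF10 and HNRNPLL to 0.20 and SRSF1 to 0.08. The 5 on the lower side were HNRNPR at -1.22, SRSF5 at -0.76, HNRNPA0 at -0.75, HNRNPA1 at -0.66 and HNRNPC at -0.63. What part GC content had in the changes was not tested further.

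**Figure D3:**
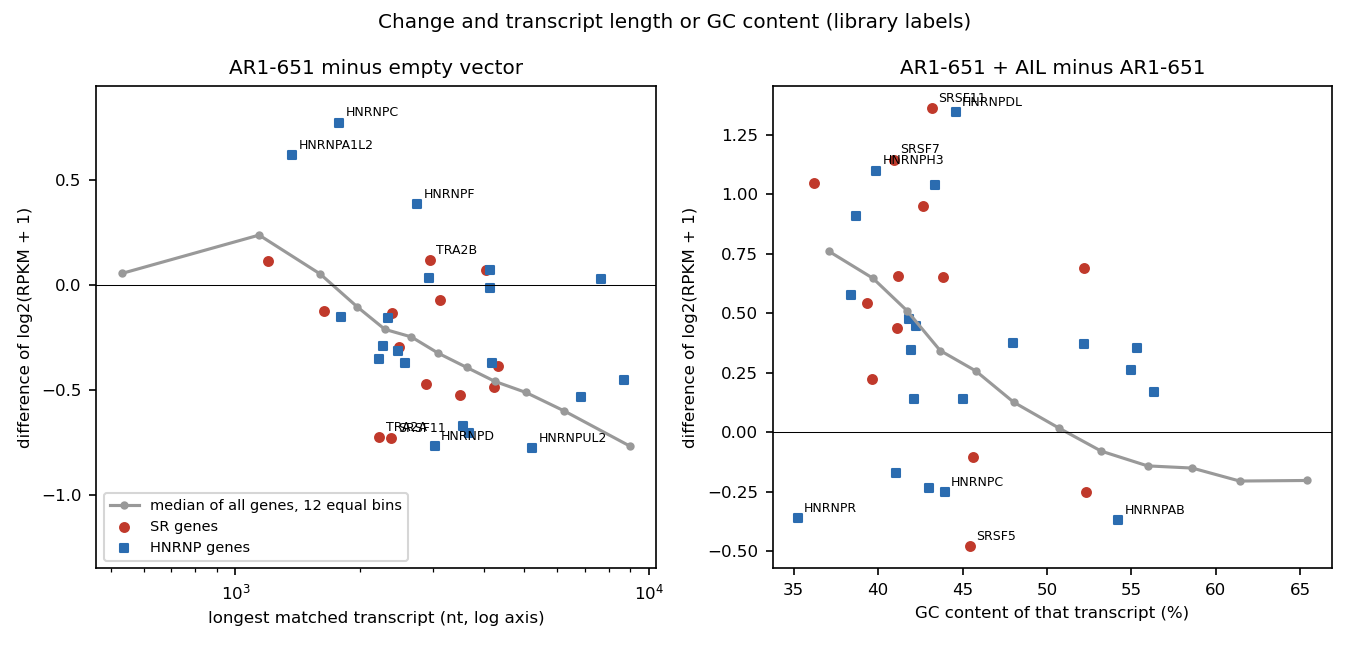
Left, difference of log2(RPKM + 1) between the libraries labelled AR1-651 and empty vector against the longest matched transcript (nt, log axis); right, the difference between AR1-651 + AIL and AR1-651 against the GC content of that transcript (%). Grey points are medians of all genes in 12 equal bins, red circles SR genes and blue squares HNRNP genes; the grey line falls from 0.76 at 37.1% GC to -0.20 at 65.4% GC, and most members lie at the GC-poor end.

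The 2 comparisons with AIL share no library, so their members can be set side by side. A rise of 1.5-fold in both was seen for 5 members (HNRNPDL, SRSF4, SRSF7, SRSF8 and TRA2B), beside 14.4% of all genes, and a fall in both for 0, beside 8.75%. A count of 5 of 34 is a share close to that background. Across the 34 members the changes correlated with a Pearson r of 0.67, and across all genes with 0.56. The sign was the same in 25 of 34 members (73.5%) and in 70.2% of all genes. Both libraries with AIL were above both without it for 14 members, 7 SR and 7 HNRNP genes, where 29.1% of all genes were. These were SRSF1, SRSF3, SRSF4, SRSF7, SRSF8, SRSF11, TRA2B, HNRNPDL, HNRNPF, HNRNPH1, HNRNPH3, HNRNPK, HNRNPL and HNRNPLL. Both were below for 4 members, HNRNPA1, HNRNPA3, HNRNPR and SRSF5, where 20.6% of all genes were. With the trend in length and GC removed, HNRNPDL alone was raised 1.5-fold in both pairs, beside 12.52% of all genes, and HNRNPA1 and SRSF5 were lowered in both, beside 10.5%. With median-ratio scaling the members raised in both were HNRNPDL, SRSF7 and TRA2B, beside 11.9%, and SRSF5 was lowered in both, beside 11.1%.

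**Figure D4:**
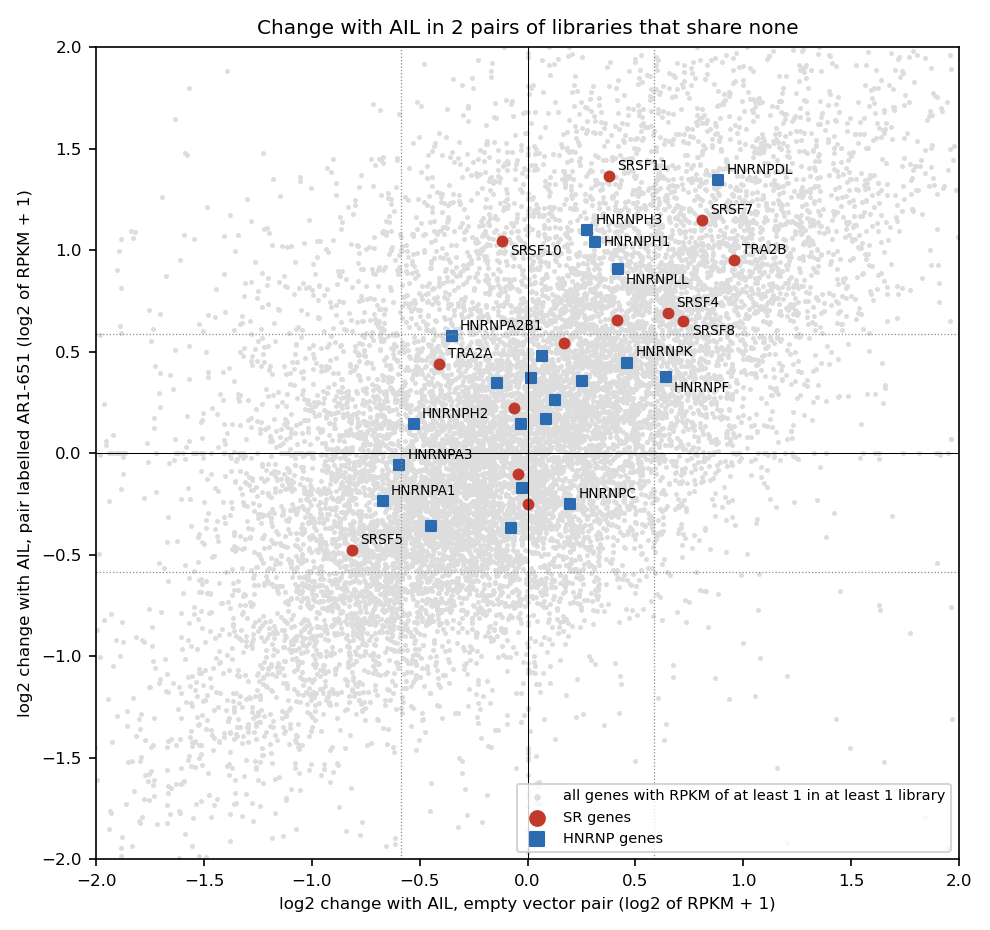
Change with AIL in the pair labelled AR1-651 (vertical) against the change in the empty vector pair (horizontal), both as differences of log2(RPKM + 1), for all genes (grey), SR genes (red circles) and HNRNP genes (blue squares); dotted lines mark 1.5-fold, and 613 genes beyond the axis limits are not drawn. TRA2B, SRSF7 and HNRNPDL sit at the upper right, and SRSF5 and HNRNPA1 at the lower left. SRSF10 and SRSF11 are past the 1.5-fold line on the vertical axis only, at -0.12 and 0.38 on the horizontal axis.

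The AR1-651 and empty vector libraries without AIL were compared to see what the construct did. In the library labelled AR1-651, 2 members were 1.5-fold higher (HNRNPC, 0.78, and HNRNPA1L2, 0.62) against 10.7% of all genes. Lower were 6 members against 32.3%: HNRNPUL2 at -0.78, HNRNPD at -0.77, SRSF11 at -0.73, TRA2A at -0.72, HNRNPA2B1 at -0.71 and HNRNPUL1 at -0.67. The change was 2-fold for 0 members, against 4.01% higher and 11.6% lower. The median was -0.29 over the members and -0.30 over all genes, so the medians lay close together. The interval was 0.67 to 0.89 for HNRNPC, and -0.19 to 2.21 for HNRNPA1L2, which holds 0. The change of all genes moved with transcript length (rho -0.40). The lower calls depended on scaling, with 0 members lower by 1.5-fold under median-ratio scaling, beside 20.8% of all genes, and 18 when libraries were set to the same summed RPKM, beside 50.2%. The median of all genes was -0.09 under the former and -0.59 under the latter.

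With AIL present in both, the library labelled AR1-651 + AIL was compared with empty vector + AIL. HNRNPA1L2 (0.79), HNRNPH3 (0.67) and SRSF10 (0.64) were 1.5-fold higher, against 7.73% of all genes, and HNRNPA0 (-0.60) and HNRNPUL1 (-0.59) were lower, against 15.5%. No member reached 2-fold, where 1.46% of genes were higher and 3.53% lower. The median was 0.12 over members and -0.03 over all genes, with a rho between change and GC content of -0.60 over all genes. Without the length and GC trend, 0 members were higher and 2 lower (HNRNPA0 at -0.72 and SRSF2 at -0.59), beside 4.81% and 5.54% of all genes, and the median of the members was -0.08. HNRNPUL1 was lower by 1.5-fold in the libraries labelled AR1-651 both without and with AIL, but not under median-ratio scaling (-0.41 and -0.53) or without the trend (-0.27 and -0.22). HNRNPA1L2 was higher in both, with a counting interval of 0.09 to 2.52 in the second, but without the trend it came to 0.42 and 0.56.

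The wider splicing machinery was followed in 6 lists, to be read beside a median of all genes of -0.02 with AIL in the empty vector pair (20.9% of genes up and 22.1% down 1.5-fold) and 0.13 in the pair labelled AR1-651 (28.6% up and 14.7% down). The alternative scalings and the removal of the length and GC trend, which moved the counts and medians of the members, were not run for these lists. The tri-snRNP and PRPF19 complex list had 15 of 25 genes up 1.5-fold and 0 down with AIL in the empty vector pair (median 0.67). In the pair labelled AR1-651 it had 16 up and 0 down (median 0.78). SNRNP40, a U5 component, went from 25.8 to 87.0 in the empty vector pair, and PRPF38B from 14.4 to 80.6 in the other. U1 and U2 snRNP proteins with 3′ splice site factors had 12 of 28 up and 2 down (median 0.58) and then 9 up and 2 down (median 0.32), led by ZRSR2, a factor of minor introns, from 7.83 to 36.9 and from 10.7 to 52.2. The medians of both lists were above those of the SR and HNRNP genes in the empty vector pair. In the pair labelled AR1-651 the tri-snRNP list was again above both, but the U1 and U2 list was below both (SR 0.65, HNRNP 0.34).

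The list of SR protein kinases and nuclear import factors also held protein phosphatase genes. In the empty vector pair it had 4 of 14 up and 0 down with AIL (median 0.29). In the other pair it had 10 up and 0 down (median 0.66). CLK1, a nuclear kinase of SR proteins, went from 18.6 to 121 and from 23.1 to 196, a log2 change of 2.63 and 3.04, larger than that of any SR or HNRNP gene. CLK2 went from 20.7 to 15.1 in the empty vector pair. SR-related proteins had 7 of 25 up and 0 down (median 0.04) and then 16 up and 0 down (median 0.82), with RSRC2 going from 44.5 to 147 and from 40.9 to 247. Other regulators of alternative splicing had 12 of 36 up and 3 down (median 0.25) and then 20 up and 1 down (median 0.69). PSPC1, a paraspeckle protein, went from 40.2 to 129.9 in the first pair, and SFPQ, its partner, from 35.3 to 162 in the other. Nonsense-mediated decay factors, which remove poison exon transcripts, had 6 of 15 up and 1 down (median 0.35) and then 7 up and 1 down (median 0.50), with SMG5 falling from 30.4 to 13.7 and from 14.1 to 6.48.

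**Figure D5:**
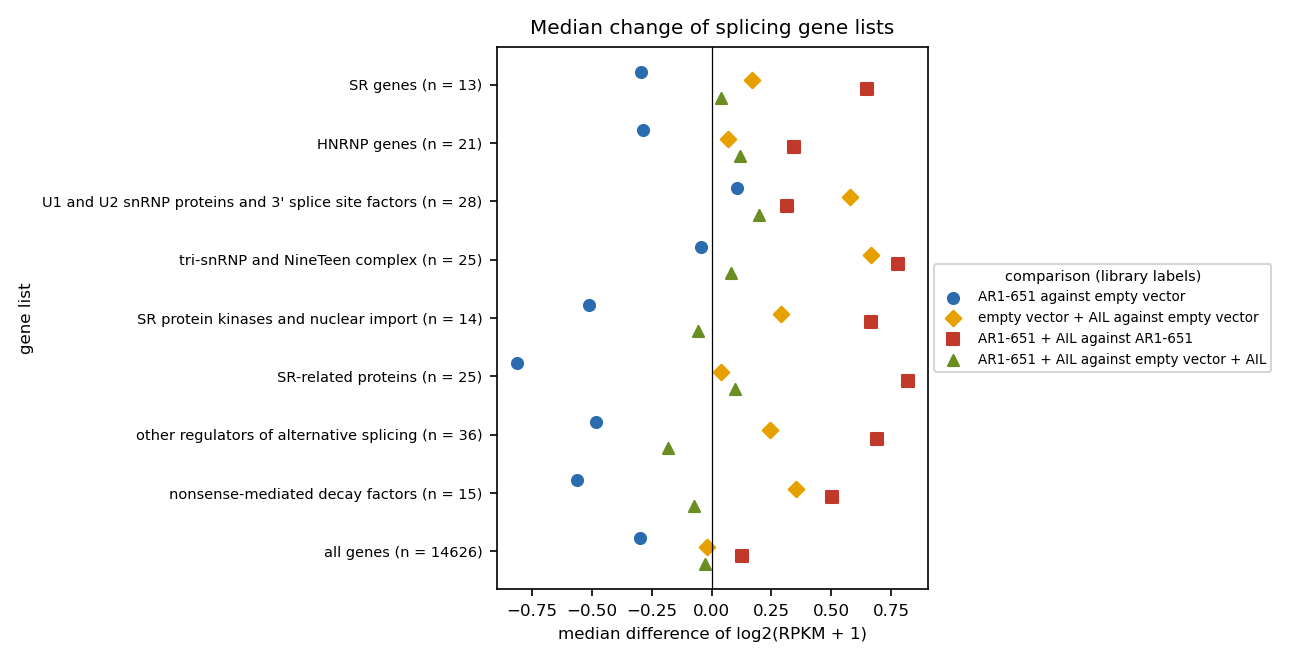
Median difference of log2(RPKM + 1) of the SR genes, the HNRNP genes, 6 other splicing lists and all genes, with 1 marker for each comparison. The medians of AR1-651 + AIL against AR1-651 (red squares) lie between 0.32 and 0.82 for the lists and at 0.13 for all genes.

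In the library labelled AR1-651 against empty vector the median of all genes was -0.30, with 10.7% of genes 1.5-fold higher and 32.3% lower. Below that median lay 4 lists: SR-related proteins had 2 of 25 up and 14 down (median -0.81), kinases and import factors 0 of 14 up and 6 down (-0.51), other regulators 3 of 36 up and 14 down (-0.48) and decay factors 1 of 15 up and 7 down (-0.56). Above it lay the U1 and U2 proteins, with 11 of 28 up and 8 down (0.11), and the tri-snRNP list, with 2 of 25 up and 3 down (-0.04). PNN, an SR-related protein of the exon junction complex, went from 49.3 to 16.5, and ALYREF, an export adaptor, from 91.7 to 233. The 2 comparisons that use the library labelled AR1-651 share it, so a low value there lowers 1 difference and raises the other. With AIL in both libraries the medians of the 6 lists lay between -0.18 and 0.20, and the genes 1.5-fold up and down were 1 and 5 of the U1 and U2 list, 2 and 2 of the tri-snRNP list, 2 and 2 of the kinases and import factors, 4 and 6 of the SR-related proteins, 2 and 4 of the other regulators and 2 and 6 of the decay factors, where 7.73% of all genes were up and 15.5% down. The gene-level RPKM sums all transcripts of a gene, so forms with and without a poison exon cannot be told apart here.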

How the data were processed

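Total RNA of 4 LNCaP cultures was sequenced, 1 library per condition, and conditions were taken from the sample labels. The labels name both a Ribo-Zero total RNA kit and oligo(dT) enrichment. The authors deposited RPKM values per gene, rounded to 2 decimals, and the submitters' processing notes name BWA 0.7.10-r789 and hg19. The counting tool, strand setting and annotation release are not given in the sources used here, so reads of paralogs, pseudogenes and overlapping genes may be split in ways that are unknown.

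Symbols were matched by Entrez identifier for 19703 of 19801 genes. A gene was kept where its RPKM reached 1 in any library, and differences of log2(RPKM + 1) were counted at 1.5-fold and 2-fold. With 1 library per condition no test was made. Depth was read from steps of low RPKM values in short genes, taking the span as length minus 36 nt, and 73.3% to 85.6% of 146 to 228 genes came out whole within 0.06 reads. Counting intervals are at 95% and rest on that depth and on the shortest matched transcript of each member. For members with much longer transcripts the reads may be set too low and the intervals too wide. Transcript length and GC content came from GENCODE 29 through RefSeq identifiers (33 members, 95.8% of genes), and promoters from RefSeq GRCh38.p14. No coordinates were taken from hg19. The check of the AR1-651 construct is not reported here.

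The members, lists and alternatives were chosen with earlier results of these data known. Members that changed 1.5-fold in a comparison, and the highest of each subfamily, were to be given in every library; of each list the gene with the largest rise and fall at RPKM of at least 5 could be named, and a selection of these is given. Alternatives were a pseudocount of 0.1, a filter at RPKM 5 or none, 3 scalings between libraries, removal of a degree 3 trend in length and GC, and, added after the data were seen, shares without ribosomal protein genes. The calculations were checked on simulated data and run in Python 3.11.15 with NumPy 2.4.6, pandas 2.3.3 and SciPy 1.17.1, and plots were drawn with Matplotlib 3.10.9.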

Additional observations from a re-analysis of the deposited data

Results flagged for a closer look

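Some members moved one way in 1 pair of libraries and the opposite way in the other pair of the same contrast, with both changes larger than their 95% counting intervals. Each group has 1 library, so none of these differences was tested. Counting intervals were calculated for the members only, so the counts that rest on them have no share over all genes beside them. The change with AIL had opposite signs for 8 of 34 members (27.8% of all genes), and for 3 of them both counting intervals left out 0. HNRNPA2B1 changed by -0.35 in the empty vector pair and 0.58 in the pair labelled AR1-651, a difference of 0.93. TRA2A changed by -0.41 and 0.44, a difference of 0.85, and HNRNPC by 0.20 and -0.25, a difference of -0.45. With the trend in length and GC removed, none of these 3 kept opposite signs. The changes were then -0.40 and -0.16 for HNRNPA2B1, -0.65 and -0.16 for TRA2A, and -0.06 and -0.63 for HNRNPC.

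The change between the libraries labelled AR1-651 and empty vector had opposite signs without and with AIL for 14 of 34 members (34.9% of all genes), and for 5 of them both counting intervals left out 0. SRSF11 changed by -0.73 without AIL and 0.26 with it, a difference of 0.99. HNRNPA2B1 changed by -0.71 and 0.22 (difference 0.93), HNRNPH1 by -0.29 and 0.44 (difference 0.72), and HNRNPH2 by -0.35 and 0.32 (difference 0.67). SRSF9 changed by 0.12 and -0.14, a difference of -0.25. With the trend in length and GC removed, HNRNPA2B1 (-0.37 and -0.13) and SRSF9 (-0.03 and -0.11) no longer had opposite signs. SRSF11 then came to -0.72 and 0.02, HNRNPH2 to -0.37 and 0.01, and HNRNPH1 to -0.31 and 0.20. HNRNPA2B1 was in both sets, and both of its differences are the same sum of the 4 libraries.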

How the results depend on the processing

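No paired test was run, because each condition has 1 library and the labels give no replicate numbers. The 2 vector labels each hold a library without and with AIL, and their differences are given side by side with no test. With 1 library per condition no replicate could be left out. Of the members past 1.5-fold, 0 took the other sign under any alternative, but the calls past 1.5-fold held under every alternative for 7 of 9 in empty vector + AIL against empty vector, 3 of 11 in AR1-651 + AIL against AR1-651, 0 of 8 in AR1-651 against empty vector and 0 of 5 with AIL in both. A change of the RPKM filter cannot move the value of a kept member, so only the other alternatives bear on these calls. Among all members, also those short of 1.5-fold, some took the other sign under at least 1 alternative. These were 17 in AR1-651 against empty vector and 13 in AR1-651 + AIL against AR1-651. With AIL in both they were 11, and in the empty vector pair 5. The medians and counts moved as follows, and the cause was not tested.

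With median-ratio scaling, AR1-651 against empty vector had 1 member 2-fold higher and 0 members 1.5-fold lower, with a median of -0.0287 over members, -0.035 over SR genes and -0.023 over HNRNP genes. AR1-651 + AIL against AR1-651 had 2 members 2-fold higher and 2 members 1.5-fold lower, with medians, in that order, of 0.16, 0.44 and 0.13. With AIL in both, 5 members were 1.5-fold higher and 0 lower. With the same summed RPKM, AR1-651 against empty vector had 6 members 2-fold lower, 0 members 1.5-fold higher and 18 lower, with medians of -0.65, -0.65 and -0.65. The median with AIL in the empty vector pair turned to -0.014 over members and -0.025 over HNRNP genes. AR1-651 + AIL against AR1-651 had medians of 0.55, 0.84 and 0.53, and with AIL in both the SR median was -0.038. With ribosomal protein genes left out of that sum, AR1-651 against empty vector had 1 member 1.5-fold higher and 11 lower, with medians of -0.45, -0.46 and -0.45, and the empty vector pair had medians of -0.0291, 0.064 and -0.040.

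With the trend in length and GC removed, AR1-651 against empty vector had 3 members 1.5-fold lower and medians of -0.10, -0.10 and -0.046. The empty vector pair had 1 member 2-fold lower. AR1-651 + AIL against AR1-651 had 1 member 2-fold higher, 1 member 2-fold lower, 4 members 1.5-fold higher and 5 lower, with medians of -0.028, 0.078 and -0.046. With AIL in both, 0 members were 1.5-fold higher and the medians were -0.082, -0.082 and -0.057. At a pseudocount of 0.1, 1 member was 2-fold higher with AIL in both, and at a filter of RPKM 5, 1 member was 1.5-fold higher in AR1-651 against empty vector. The interval from counting held 0 for 13 of 33 members in AR1-651 against empty vector, 12 in the empty vector pair, 4 in AR1-651 + AIL against AR1-651 and 11 with AIL in both.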

Other observations

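Rows that share sequence with members moved as follows, in the order empty vector without and with AIL, then AR1-651 without and with AIL. HNRNPUL2-BSCL2, a readthrough gene annotated as noncoding and so not a member, had RPKM 58.7, 57.6, 46.3 and 39.6, each above that of HNRNPUL2 itself. The pseudogene HNRNPKP3 was at 0.10, 0.78, 0.00 and 0.65. How reads of these loci were divided is not known.

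Ratios of the RPKM of related genes moved within a library, where scaling between libraries has no part. SRSF7 to SRSF3 was 0.66, 1.04, 0.76 and 1.16. SRSF8 to SRSF2 was 0.44, 0.76, 0.64 and 1.10, SRSF4 to SRSF5 was 0.26, 0.74, 0.26 and 0.59, and SRSF6 to SRSF5 was 0.53, 0.90, 0.44 and 0.72, each higher in both libraries with AIL than in both without. The ratios of SRSF1 to SRSF9, HNRNPA2B1 to HNRNPA1, HNRNPLL to HNRNPL, TRA2B to TRA2A and HNRNPDL to HNRNPD had the same order. HNRNPH1 to HNRNPF, at 0.96, 0.76, 0.60 and 0.95, and HNRNPUL2 to HNRNPU, at 0.163, 0.157, 0.131 and 0.125, showed no such split. The pairs were picked by hand among related genes, with SRSF5 under both SRSF4 and SRSF6. No share over other gene pairs was calculated, and the order was not tested.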
